A study of Homo sapiens with 6 samples.

Results

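The genes described here code for the NF-κB transcription factors and for proteins that hold them back. All 10 genes of the set were measured, among 11048 gene symbols in 6 RNA sequencing libraries. They were chosen by name, with earlier results of these data known. The set holds the 5 NF-κB subunits (REL, RELA, RELB, NFKB1 and NFKB2), 3 IκB inhibitors (NFKBIA, NFKBIB and NFKBIE) and 2 feedback genes that act further upstream (TNFAIP3 and BIRC3). MM1.S, an established human multiple myeloma cell line, received the DMSO vehicle, 3 µM CCF642 or 3 µM CCF642-34, and RNA was taken after 6 h. CCF642 inhibits the protein disulfide isomerase PDIA1, an enzyme that folds secreted proteins in the endoplasmic reticulum, and CCF642-34 is an analogue of it made for greater selectivity. Each group had 2 libraries, all of the same line, and no genetic change separated the groups. The labels do not say that the replicates came from separate cultures. The p values therefore measure the spread between these libraries, shared between genes in the fit, and that spread may be technical.

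NF-κB factors are dimers of the subunits. RELA, RELB and REL carry a domain that activates transcription, while NFKB1 and NFKB2 make precursors that are processed into short DNA-binding partners. IκB proteins keep the dimers in the cytoplasm until a kinase complex, IKK, marks them for degradation. NFKBIA, TNFAIP3, BIRC3, NFKB2 and RELB are themselves classical NF-κB targets, so that the pathway makes its own inhibitors. TNFAIP3 edits ubiquitin chains that carry the signal from receptors to IKK, and BIRC3 is a ubiquitin ligase that restrains the NF-κB-inducing kinase MAP3K14. Many myelomas carry lesions of this pathway. Because mRNA was measured, the values say nothing of protein, of processing of the precursors or of entry into the nucleus.

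The short DNA element bound by NF-κB, the κB site, was looked for in the 250 bases before the annotated starts, since it is what the pathway's targets have in common. RefSeq promoter sequences (GRCh38.p14) matched 8 of the 10 genes by symbol, with 13 start sites, and RELB and NFKBIE had no entry. The κB consensus, 10 bases long and read on both strands, stood before at least 1 start of 7 of these 8 genes (87.5%), every one but RELA. It was present in 5.21% of all 35116 promoter windows, and in 713 of the 8871 measured genes with an entry (8.04%). The form of the consensus was chosen after the sequences had been seen, genes with several starts have more chances of a match, and a match is no proof of binding. The stretches below are from NFKBIA and BIRC3, the inhibitors that differed most between the compounds, in which all bases before the annotated gene are given, and from 5 further genes, in which only the 30 bases around a match are given. They are written 5′ to 3′ on the strand of the gene, in lower case, with the bases of a κB match in capitals, whether the match reads on this strand or on the opposite one. NFKBIA lies on the minus strand of chromosome 14, and the stretch is chr14:35404750-35404999, with its match 81 to 72 bases before the start. BIRC3 lies on the plus strand, and the stretch is chr11:102317234-102317449, with matches beginning 199 and 135 bases before the start. The stretches of REL (chr2:60881517-60881546), NFKB1 (chr4:102501300-102501329), NFKB2 at starts 2 and 3 (chr10:102394461-102394490 and chr10:102395674-102395703), NFKBIB at start 2 (chr19:38899931-38899960) and TNFAIP3 (chr6:137867188-137867217) are all on the plus strand.
NFKBIA: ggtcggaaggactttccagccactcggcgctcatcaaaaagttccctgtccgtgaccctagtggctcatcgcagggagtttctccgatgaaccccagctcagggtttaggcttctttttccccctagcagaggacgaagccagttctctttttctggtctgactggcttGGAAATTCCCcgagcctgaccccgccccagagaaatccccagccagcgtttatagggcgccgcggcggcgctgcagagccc
BIRC3: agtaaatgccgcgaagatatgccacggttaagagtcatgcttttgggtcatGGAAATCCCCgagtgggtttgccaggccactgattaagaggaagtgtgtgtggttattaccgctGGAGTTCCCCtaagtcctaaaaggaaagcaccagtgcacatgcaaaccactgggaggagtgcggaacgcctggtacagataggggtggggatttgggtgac
REL: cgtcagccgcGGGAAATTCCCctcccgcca
NFKB1: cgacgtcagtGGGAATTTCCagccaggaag
NFKB2 (start 2): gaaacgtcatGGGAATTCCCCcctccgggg
NFKB2 (start 3): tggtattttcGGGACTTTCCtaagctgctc
NFKBIB: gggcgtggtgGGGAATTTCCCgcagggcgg
TNFAIP3: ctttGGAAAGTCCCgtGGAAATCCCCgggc

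The capitals show that REL, NFKB2 and NFKBIB each hold a run of 11 bases in which the consensus reads on both strands, shifted by 1 base. In TNFAIP3, a pair of matches lies close together, both on the opposite strand, 67 to 58 and 55 to 46 bases before the start. The genes with a κB match did not all respond alike, as described below: NFKBIA and REL rose several-fold with CCF642, whereas TNFAIP3 was not called.

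**Figure D1:**
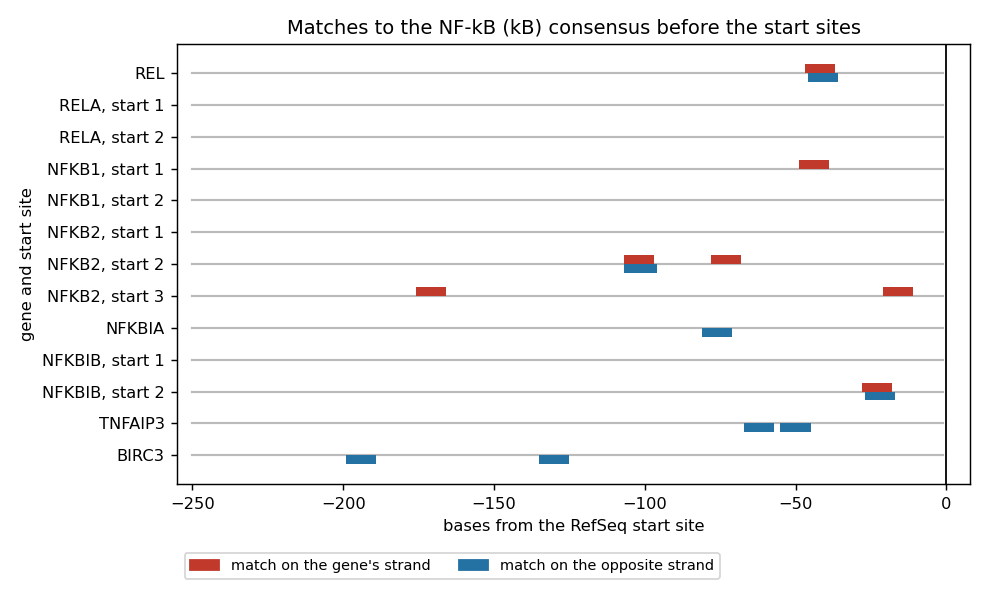
The horizontal axis gives the distance in bases from each RefSeq start site, and each grey line is 1 of the 13 windows of 250 bases. Red blocks mark a κB match of 10 bases on the strand of the gene and blue blocks one on the opposite strand. Most matches lie within the last 110 bases, RELA has none at either start, and in NFKB1, NFKB2 and NFKBIB the first or second start has none.

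The authors deposited CPM values, in which the reads of a gene are divided by the library total and brought to a common scale. Libraries held between 20567313 and 28459677 reads, and the 10 genes had between 128 and 16185 reads in each library. CPM was scaled by the TMM method, increased by 1 and converted to log2, and the 3 groups were fitted together with limma over all 11048 genes. Fold changes are on this scale, which understates the changes of low genes. A gene was called at a Benjamini-Hochberg adjusted p under 0.05, and called 2-fold when its log2 fold change was also at least 1 in size. Intervals are 95% intervals from the same fit. Since the fit shares variance between genes, its p values rest mostly on the pooled spread and little on that of the single gene. All 10 plasma cell and myeloma markers were measured. Their summed level was 9904 to 10003 CPM in the DMSO libraries and 7020 to 7054 CPM in those of CCF642. In the CCF642-34 libraries it was 7866 to 7911 CPM. The highest mean of any marker was 4319 CPM in the DMSO group. That highest mean was 1833 CPM after CCF642 and 2348 CPM after CCF642-34, so the marker highest in DMSO fell at least that far. The lower sums thus came largely from 1 gene, and they do not show a general fall of the 10 markers. Of 18 markers of other cell types, 5 were measured, and their highest summed level was 11.7 CPM, for the stromal list with CCF642, against 2.74 to 2.85 CPM with DMSO and 4.01 to 4.68 CPM with CCF642-34. In a bulk library, fewer cells of one kind and less RNA per cell cannot be told apart, and the part of these shifts in the results was not tested.

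With CCF642, mRNA of all 5 subunits rose, led by REL, and so did that of NFKBIA, NFKBIB and BIRC3. Of the 10 genes, 8 were called higher and 0 lower, where 31.8% of all genes tested were called higher, 31.3% lower and 63.1% in either direction. The median log2 fold change of the 10 was 0.93, beside -0.0068 over all genes. In all, 5 of the 10 (REL, RELB, NFKB2, NFKBIA and BIRC3) were called at 2-fold, all higher, where 6.49% of all genes were and 4.5% were higher. For 9 of the 10, all but NFKBIE, the DMSO and CCF642 libraries did not overlap in deposited CPM, which held for 81.7% of all genes. NFKB2 and BIRC3 are near the 2-fold limit with CCF642, since with library size alone as the scaling their log2 fold changes were 0.90 and 0.95. With CCF642-34, 7 were called higher and 2 lower, where 29.7% of all genes were called higher, 27.9% lower and 57.6% in either direction. None (0) of the 10 were called at 2-fold, where 3.88% of all genes were, and the libraries of all 10 did not overlap with those of DMSO, as for 79.3% of all genes. The median was then 0.33, beside 0.0062 over all genes. Both compounds were compared with the same DMSO libraries. The direct comparison of the compounds, which is 1 pair at a matched dose and time, called all 10 lower with CCF642-34 than with CCF642. In that comparison 17.5% of all genes were called lower, 15.9% higher and 33.4% in either direction.

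**Figure D2:**
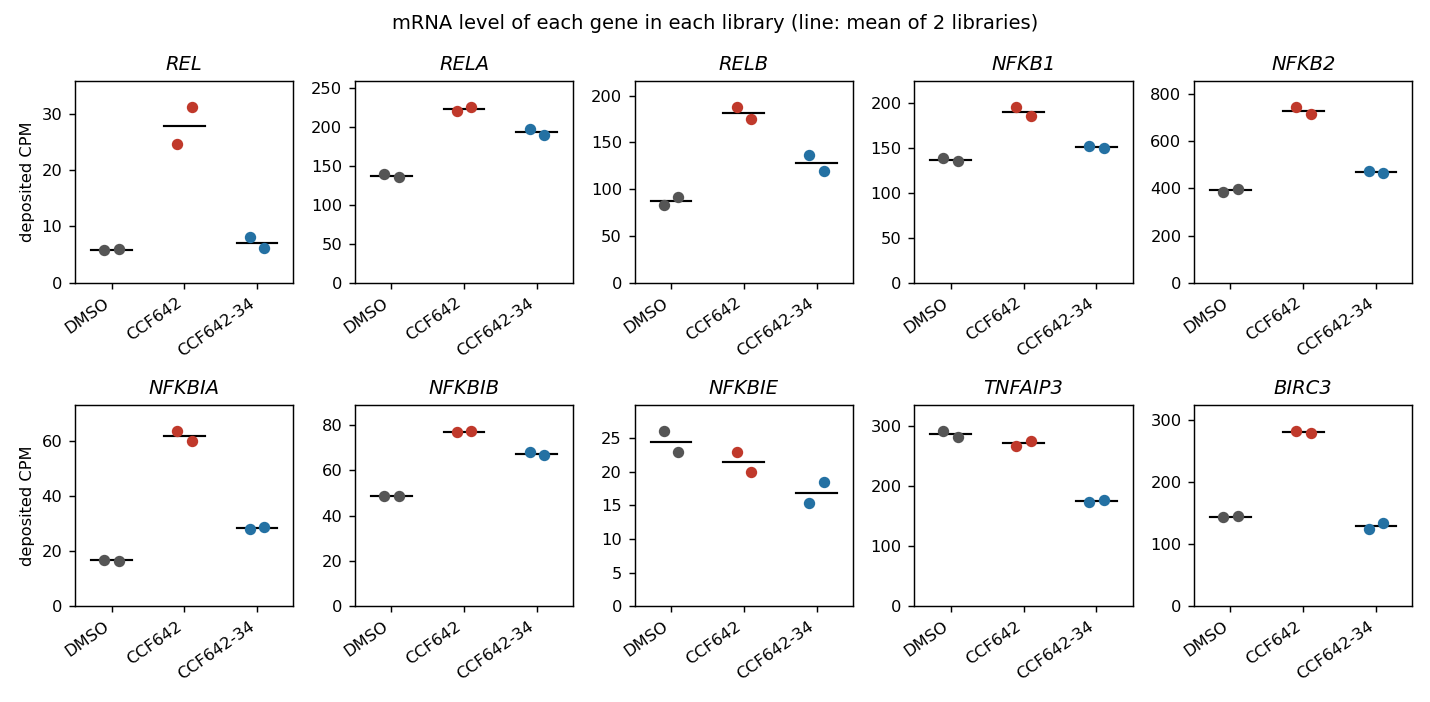
Each panel shows the deposited CPM of 1 gene on an axis that starts at 0, with a point for each of the 2 libraries of a group and a line at their mean. Points of CCF642 stand above those of DMSO for 8 genes, those of CCF642-34 lie in between for 7 of these (not BIRC3), and TNFAIP3 and NFKBIE are lowest with CCF642-34.

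REL, which codes for c-Rel, a subunit best known from lymphocytes, showed the largest increase of the 10. Its level was 5.79 and 5.98 CPM with DMSO, 24.6 and 31.1 CPM with CCF642, and 8.12 and 6.15 CPM with CCF642-34. The CCF642 libraries stood well above the other 4, and the CCF642-34 libraries only just above DMSO. The increase with CCF642 was 4.53-fold (interval 3.76 to 5.44, adjusted p = 1.63e-19). With CCF642-34 the log2 fold change was 0.31 (interval 0.04 to 0.57, adjusted p = 0.0438). This call was lost in 10 of 18 alternatives, over which the adjusted p ran from 0.0122 to 0.529. It was lost without replicate 1 of CCF642-34 (log2 fold change 0.13) and also without replicate 1 or replicate 2 of DMSO (0.29 and 0.33). Between the compounds, REL was 3.66-fold lower with CCF642-34 (log2 fold change -1.87, SE 0.13, adjusted p = 4.01e-16). REL had only 128 to 703 reads in a library, and 43.3% of its annotated exon length is shared with the transcript AC010733.2 on the same strand, so reads there could belong to either.

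RELB, the partner of the NFKB2 product in the alternative pathway, was measured at 82.9 and 92.0 CPM with DMSO, at 188 and 175 CPM with CCF642, and at 137 and 119.8 CPM with CCF642-34. The 3 groups did not overlap. It rose 2.26-fold with CCF642 (log2 fold change 1.18, SE 0.06, adjusted p = 2.41e-23) and 1.55-fold with CCF642-34 (0.63, SE 0.06, adjusted p = 1.57e-13). NFKB2, the precursor of that partner, was at 386 and 397 CPM with DMSO, at 743 and 716 CPM with CCF642, and at 472 and 466 CPM with CCF642-34. Again the groups were fully apart, with the analogue nearer to DMSO. NFKB2 rose 2.04-fold with CCF642 (log2 fold change 1.03, SE 0.04, adjusted p = 6.28e-28) and 1.27-fold with CCF642-34 (0.35, SE 0.04, adjusted p = 6.74e-11). Both genes of the alternative pathway were lower with CCF642-34 than with CCF642, RELB by 0.54 on the log2 scale (interval -0.66 to -0.43) and NFKB2 by 0.68 (interval -0.76 to -0.60).

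RELA, which codes for p65, the main activating subunit of the canonical pathway, was at 139.8 and 135 CPM with DMSO, at 221 and 225 CPM with CCF642, and at 198 and 189 CPM with CCF642-34. NFKB1, the precursor of its usual partner, was at 139 and 135 CPM with DMSO, at 195 and 185 CPM with CCF642, and at 152 and 150.1 CPM with CCF642-34. For both genes no library of 1 group reached into another. The increases with CCF642 were 1.77-fold for RELA (adjusted p = 7.73e-21) and 1.52-fold for NFKB1 (adjusted p = 1.90e-15), and neither reached 2-fold. With CCF642-34 they were 1.49-fold (adjusted p = 4.26e-15) and 1.17-fold (adjusted p = 6.00e-05). The direct difference was the smallest of the subunits for RELA, -0.25 on the log2 scale (interval -0.34 to -0.15), and it was -0.37 for NFKB1 (interval -0.47 to -0.28).

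NFKBIA, which codes for IκBα, the inhibitor that NF-κB restores first after activation, stood next to REL in its increase. Its level was 16.8 and 16.6 CPM with DMSO, 63.7 and 60.1 CPM with CCF642, and 28.1 and 29 CPM with CCF642-34. Replicates lay close together, and the groups were far apart. It rose 3.88-fold with CCF642 (log2 fold change 1.96, SE 0.08, adjusted p = 6.94e-26) and 1.77-fold with CCF642-34 (0.82, SE 0.08, adjusted p = 3.68e-12). CCF642-34 left it 2.19-fold lower than CCF642 did (adjusted p = 7.46e-16).

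NFKBIB, which codes for IκBβ, was at 48.6 and 48.5 CPM with DMSO, at 76.8 and 77.4 CPM with CCF642, and at 68.3 and 66.6 CPM with CCF642-34. This inhibitor rose with both compounds, 1.73-fold (adjusted p = 1.61e-15) and 1.47-fold (adjusted p = 1.25e-10), and the difference between them was the least of all 10 genes, -0.23 on the log2 scale (interval -0.36 to -0.11, adjusted p = 0.00263). NFKBIB shares 40 exon bases with SIRT2 on the opposite strand.

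NFKBIE, which codes for IκBε, went another way. Its level was 26.1 and 22.9 CPM with DMSO, 23.0 and 19.9 CPM with CCF642, and 15.4 and 18.4 CPM with CCF642-34. The DMSO and CCF642 libraries overlapped, and both CCF642-34 libraries were below the other 4. No difference from DMSO was called with CCF642 (log2 fold change -0.054, interval -0.26 to 0.15, adjusted p = 0.667), and the interval leaves out a change as large as that of NFKBIB. The gene fell with CCF642-34, to 0.745 of the DMSO level (log2 fold change -0.43, SE 0.10, adjusted p = 0.000394). It was also lower than with CCF642 (-0.37, interval -0.58 to -0.17, adjusted p = 0.00387). That last call was lost without replicate 1 of CCF642 (-0.28, adjusted p = 0.055) and without replicate 1 of CCF642-34 (-0.25, adjusted p = 0.144).

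TNFAIP3, which codes for the ubiquitin-editing enzyme described above, was abundant and did not follow NFKBIA. Its deposited level was 292 and 282 CPM with DMSO, 268 and 275 CPM with CCF642, and 174 and 177 CPM with CCF642-34. Both CCF642-34 libraries were far below the rest. In the fit, CCF642 and DMSO differed by 0.053 on the log2 scale (interval -0.034 to 0.14, adjusted p = 0.294), while the deposited CPM were lower with CCF642 in both libraries and scaling by library size alone gave -0.081, so that no direction can be given. CCF642-34 lowered TNFAIP3 by 0.62 on the log2 scale against DMSO (SE 0.04, adjusted p = 4.32e-17), a level 0.651 times that of DMSO. Against CCF642 it was 1.59-fold lower (adjusted p = 1.44e-17).

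BIRC3, which codes for the ubiquitin ligase cIAP2, was called higher with CCF642 and had no call with CCF642-34. It was at 144.5 and 145 CPM with DMSO, at 283 and 279 CPM with CCF642, and at 125 and 134.5 CPM with CCF642-34. The CCF642 libraries were the only ones raised, and those of CCF642-34 lay slightly below DMSO. The increase with CCF642 was 2.12-fold (log2 fold change 1.08, SE 0.05, adjusted p = 3.24e-25). With CCF642-34 the log2 fold change was -0.071 (interval -0.17 to 0.024, adjusted p = 0.196), and it was called lower with library size alone as the scaling (-0.16, adjusted p = 0.00335). The difference between the compounds, tested directly, was -1.16 (SE 0.05, adjusted p = 5.19e-25).

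**Figure D3:**
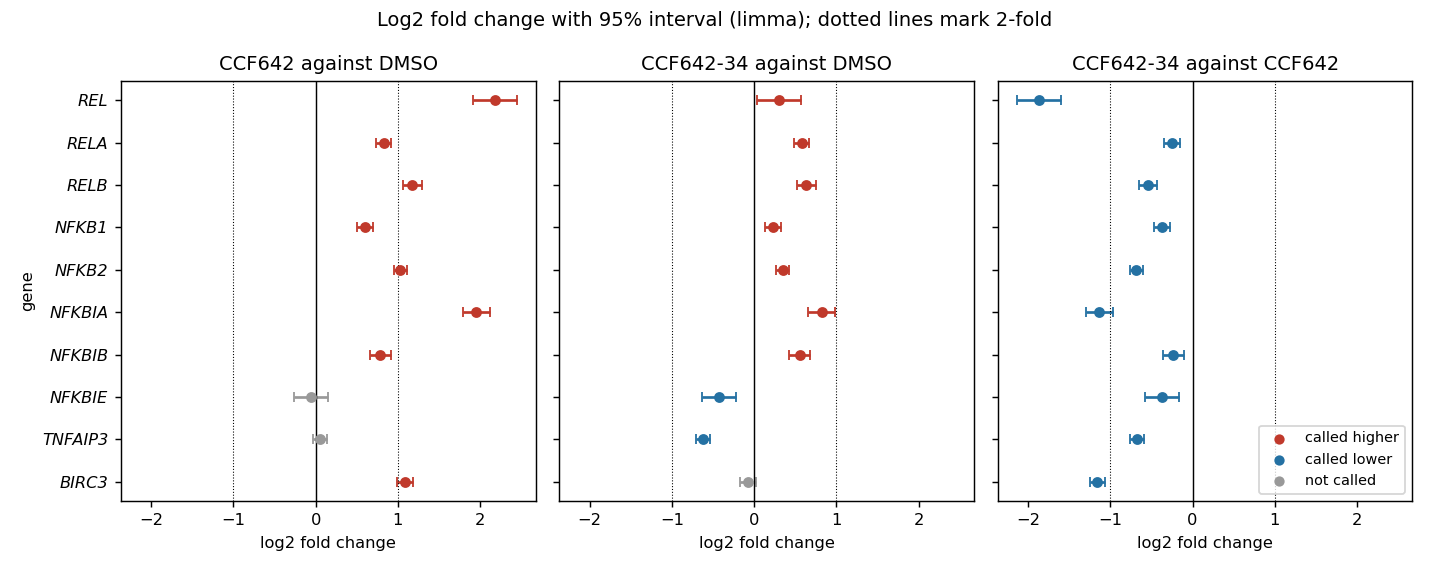
Points give the log2 fold change of each gene in the 3 comparisons, bars its 95% interval, and colour whether it was called higher (red), lower (blue) or not called (grey). In the left panel 8 genes are called and lie right of 0, with TNFAIP3 and NFKBIE close to it, in the middle panel TNFAIP3 and NFKBIE lie left of 0 with BIRC3 close to 0, and in the right panel all 10 lie left of 0.

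In the direct comparison the log2 fold changes of the 10 genes ran from -1.87 to -0.23, with a median of -0.61, beside 0.0091 over all genes. The groups did not overlap for any of the 10, in a table where 65.1% of all genes had groups that did not overlap, and 25.4% of all genes did so with CCF642-34 below. REL, NFKBIA and BIRC3 were called at least 2-fold lower, as were 33 genes over all tested (0.299%), while 0.308% differed 2-fold in either direction. These 3 differ in what they do, as REL is an activating subunit, NFKBIA an inhibitor of the dimers and BIRC3 a ligase upstream of them. For RELA and NFKBIB, in contrast, the compounds were within 1.19-fold and 1.18-fold of each other.

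The levels of the 10 genes could be set against each other only per length, as CPM per kb of annotated exon length. In every group NFKB2 was highest, with a mean of 87.3 CPM per kb with DMSO, 163 with CCF642 and 104.6 with CCF642-34. REL was lowest in every group, with means of 0.447, 2.11 and 0.542 CPM per kb, although its exon length of 13170 bases includes the stretch shared with AC010733.2. With DMSO the order from the top was NFKB2, TNFAIP3, RELB, RELA, NFKB1, NFKBIB, BIRC3, NFKBIE, NFKBIA and REL. No neighbours had overlapping libraries, but this does not cover error in the lengths. The length counts every annotated exon of a gene, and which transcripts the cells made was not examined. Neighbours close in level, such as RELA (25.2 CPM per kb) and NFKB1 (21.9), could change places with another length. TNFAIP3 moved down this order, from rank 2 with DMSO (56.9 CPM per kb) to rank 3 with CCF642 (53.8) and rank 4 with CCF642-34 (34.7). RELB passed it in both treated groups, at 59.7 CPM per kb with CCF642 and 42.3 with CCF642-34. Among the inhibitors, NFKBIA stood under NFKBIE with DMSO (7.04 against 9.48 CPM per kb) and above it with CCF642 (26.1 against 8.31) and with CCF642-34 (12 against 6.55). The only neighbours whose libraries overlapped were RELA and TNFAIP3 with CCF642-34.

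Summed over the 5 subunits, the level was 162 and 166 CPM per kb with DMSO, 301 and 291 with CCF642, and 211 and 203 with CCF642-34. Total subunit mRNA was thus ordered as most of the single genes were, and NFKB2 stayed its largest part in every group. NFKB2 made up 53.3% ± 0.14 of the sum with DMSO (SD, n = 2), 55.0% ± 0.057 with CCF642 and 50.5% ± 1.10 with CCF642-34. RELB made up 17.6% ± 0.97, 20.2% ± 0.50 and 20.4% ± 1.30. The share of NFKB1 was 13.4% ± 0.49 with DMSO, 10.3% ± 0.12 with CCF642 and 11.7% ± 0.25 with CCF642-34, and that of RELA was 15.4% ± 0.62, 13.8% ± 0.53 and 17.1% ± 0.0095. REL remained a minor part, at 0.273% with DMSO, 0.716% with CCF642 and 0.261% with CCF642-34. These shares were not tested, and they rest on the same annotated lengths.

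**Figure D4:**
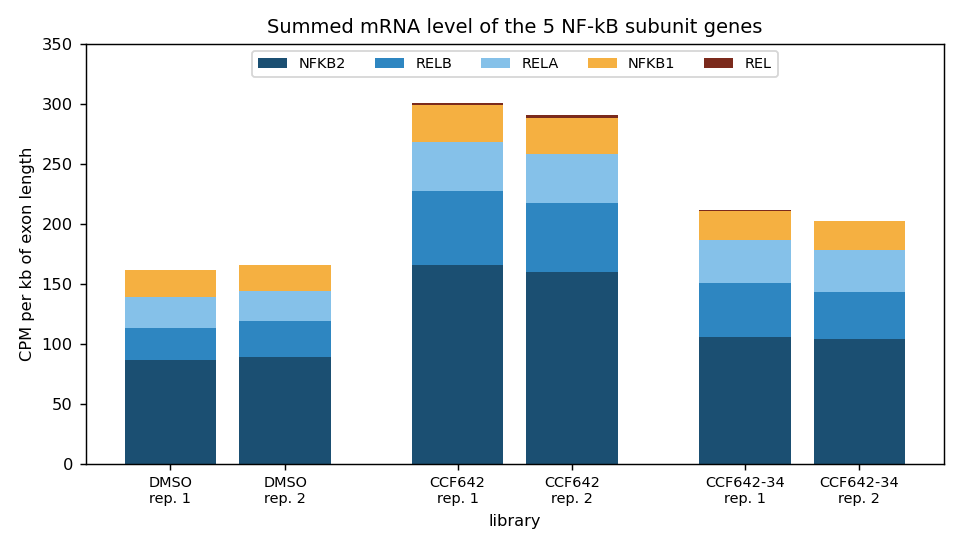
Each bar is 1 library, its height the summed CPM per kb of exon length of the 5 subunit genes, split by gene in colour. The CCF642 bars reach 301 and 291 CPM per kb, the DMSO bars 162 and 166 and the CCF642-34 bars 211 and 203, and NFKB2 is the largest part of every bar.

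The genes whose levels over the 6 libraries were most like those of the 2-fold genes were found by the distance between log2 values centred on each gene's mean. NFKB2 had the closest one, NXF1, an mRNA export receptor, at a distance of 0.0647, which rose by 0.998 with CCF642 and by 0.35 with CCF642-34 on the log2 scale. Next came CHORDC1, a co-chaperone of HSP90, and PLXNA3, a semaphorin receptor, at 0.107 and 0.108. RELB was nearest to BHLHE22 (0.147), LMNA (0.160) and SEC16A (0.179). LMNA codes for the nuclear lamins A and C, and SEC16A for an organiser of exit sites of the endoplasmic reticulum. NFKBIA was nearest to USP36 (0.169), a nucleolar deubiquitinase, FAM114A1 (0.192) and HSPA6 (0.285). BIRC3 was nearest to the heat shock genes HSPA1B (0.160) and DNAJB1 (0.291), and then to PDLIM3 (0.308). HSPA1B went from a mean of 140.5 CPM with DMSO to 287 CPM with CCF642, and BIRC3 from 144.9 to 281 CPM. These CPM are not per length, so they do not compare the levels of the genes with each other. HSPA6 and HSPA1B have near-identical relatives between which reads can be divided wrongly, so their values are uncertain. REL had no near match, as its nearest genes were KITLG (0.681), JUNB (0.695) and PHLDA1 (0.765). BHLHE22, FAM114A1 and KITLG had means of only 1.22, 1.96 and 2.63 CPM with DMSO. At such levels the added 1 shrinks log2 changes, so the nearness of these genes is uncertain.

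The rest of the pathway was followed in 9 lists with 114 genes, of which 93 were measured. The lists were written by hand with earlier results of these data known, so counts above the shares of all genes are no independent evidence. With CCF642, 47 of the 93 were called higher and 23 lower, with CCF642-34 44 and 22, and in the direct comparison 12 were called higher and 33 lower with CCF642-34. The shares of all genes tested, against which these counts and those of each list are to be read, were 31.8% higher and 31.3% lower with CCF642, 29.7% and 27.9% with CCF642-34, and 15.9% and 17.5% in the direct comparison. No list was tested as a whole. The medians over the 93 were 0.18, 0.11 and -0.037 on the log2 scale.

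Both measured ligands and most measured receptors were called lower with CCF642. Of 9 ligands 2 were measured, and TNFSF10, the death ligand TRAIL, fell by 1.01 on the log2 scale with CCF642 and by 0.69 with CCF642-34. The other, TNFSF13, was low (3.91 CPM with DMSO, 2.35 CPM with CCF642). Its call with CCF642 was at the limit (adjusted p = 0.0487), and it had none with CCF642-34 (adjusted p = 0.311). Of 12 receptors 9 were measured, and 2 were called higher and 6 lower with either compound, beside 31.3% of all genes lower with CCF642 and 27.9% with CCF642-34. TNFRSF17, which codes for the plasma cell receptor BCMA, fell by 1.06 (from a mean of 166 to 71.9 CPM) with CCF642 and by 0.81 with CCF642-34. TNFRSF1B, the second TNF receptor, fell by 0.96 and 0.68. TNFRSF11A was also called lower, but at a very low level (2.09 CPM with DMSO, 0.853 CPM with CCF642). The first TNF receptor, TNFRSF1A, rose by 0.54 and 0.45, and TNFRSF13B, which codes for TACI, by 0.53 and 0.40. In the direct comparison 2 of the 9 receptors were called higher and 1 lower, which is near the 33.4% of all genes called there.

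Adaptors and ubiquitin ligases were called higher for 10 and lower for 2 of 17 with CCF642, and for 8 and 3 with CCF642-34, beside 31.8% and 31.3% of all genes with CCF642 and 29.7% and 27.9% with CCF642-34. TRAF6, the ligase that links Toll-like and interleukin receptors to IKK, rose by 1.07 with CCF642 and by 0.61 with CCF642-34. MYD88, the adaptor upstream of it, moved the other way and fell by 1.11 and 0.71. In the direct comparison 7 of the 17 were called lower with CCF642-34 and 2 higher, beside 17.5% and 15.9% of all genes. Those lower included TRAF1, itself a known NF-κB target (-0.58, adjusted p = 0.000913), and TRAF6 (-0.46, adjusted p = 4.90e-07). The 2 higher were MYD88 (0.40) and IRAK4 (0.29). Of 12 genes for IKK and its upstream kinases, 4 were called higher and 4 lower with CCF642, near the 31.8% and 31.3% of all genes, 4 and 3 with CCF642-34, and 2 and 3 in the direct comparison. MAP3K8, a kinase that works with the NFKB1 precursor, rose by 2.61 with CCF642 (10.2 to 61.6 CPM) and by 2.06 with CCF642-34, more than any of the 10 genes with CCF642-34. MAP3K14, the kinase that BIRC3 restrains, rose by 0.55 and 0.40. CHUK, which codes for the IKK subunit of the alternative pathway, fell by 0.30 and 0.31.

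Of 10 deubiquitinases and partners of TNFAIP3, 8 were called higher and 1 lower with CCF642, and 6 and 0 with CCF642-34, beside 31.8% and 29.7% of all genes called higher. In the direct comparison 0 were called higher and 4 lower. TNIP2 rose by 0.99 and 0.68 and RNF11 by 0.80 and 0.72, while TNFAIP3 itself had no call with CCF642 and fell with CCF642-34. CYLD, which removes ubiquitin chains in the same pathway, rose by 0.29 with CCF642 and was at 0.080 with CCF642-34 (adjusted p = 0.132). Other IκB proteins and nuclear modulators had 5 of 9 called higher and 0 lower with CCF642, 5 and 1 with CCF642-34, and 0 and 5 in the direct comparison, where 17.5% of all genes were called lower. The 1 called lower with CCF642-34 was NKRF, which codes for a repressing factor of NF-κB (-0.37, adjusted p = 2.13e-05). BCL3, a nuclear IκB protein that binds the short subunits, rose by 1.44 and 0.90. NFKBIZ, another nuclear IκB, rose by 1.33 and 0.35 and was lower with CCF642-34 by 0.98 (adjusted p = 1.27e-11). NKIRAS1, which binds IκB proteins and slows their loss, rose by 1.87 and 1.44. Of 10 genes that ubiquitinate and process IκB proteins, 3 were called higher and 3 lower with CCF642, near the 31.8% and 31.3% of all genes, 5 and 1 with CCF642-34, and 3 and 0 in the direct comparison, where 15.9% of all genes were called higher. RBX1, a subunit of the ligase, was the one with the largest difference there, 0.36.

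Known target genes outside the 10 were measured for 20 of 30. With CCF642 14 were called higher and 5 lower, and with CCF642-34 13 and 6. Among all genes 31.8% and 29.7% were called higher, and the counts lower are near the 31.3% and 27.9% of all genes. The chemokine CCL3 rose by 2.14 (from a mean of 585 to 2349 CPM) with CCF642 and by 1.2 with CCF642-34, and the difference was -0.94 (adjusted p = 3.06e-26). SQSTM1, the autophagy receptor, which other stress pathways raise as well, rose by 2.41 and 1.90. PTGS2 rose by 2.01 and 1.21 from a very low level (0.608 CPM). The mitochondrial superoxide dismutase SOD2 fell by 0.75 and 0.63, and BCL2L1, an inhibitor of apoptosis, by 0.43 and 0.25. CXCL10 was at -0.36 with CCF642 (adjusted p = 0.116) and fell by 1.09 with CCF642-34, again from a low level (3.54 CPM). In the direct comparison 10 of the 20 were called lower and 3 higher, beside 17.5% and 15.9% of all genes. A list of 5 further genes used as an NF-κB signature in myeloma had 2 called higher and 0 lower with CCF642. It had 1 and 1 with CCF642-34, and 0 and 4 in the direct comparison. Of all genes, 31.8% were called higher and 31.3% lower with CCF642, 29.7% and 27.9% with CCF642-34, and 15.9% and 17.5% directly. PLEK, which codes for pleckstrin, rose by 1.6 and 1.29, and MALT1, a protease of the antigen receptor pathway, rose by 0.36 with CCF642 and was at -0.044 with CCF642-34 (adjusted p = 0.513). WNT10A, a Wnt ligand, was at -0.13 with CCF642 (adjusted p = 0.0801) and fell by 0.31 with CCF642-34 (adjusted p = 3.64e-05). MALT1 is also in the adaptor list.

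**Figure D5:**
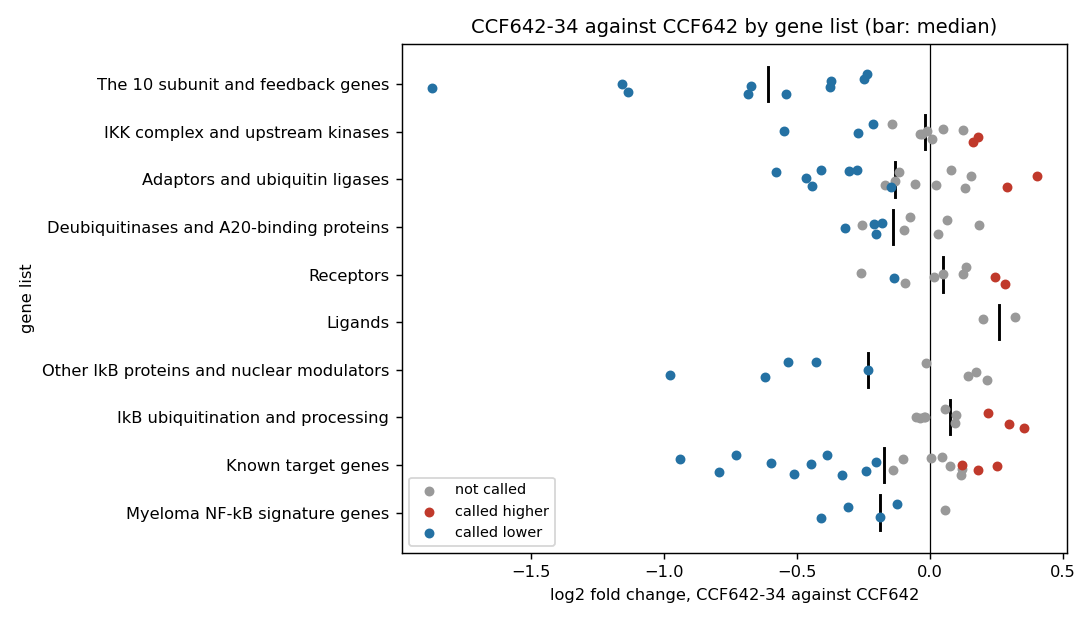
Each point is a measured gene at its log2 fold change with CCF642-34 against CCF642, grouped by list, coloured red where called higher, blue where called lower and grey where not called, with a bar at the median. The 10 subunit and feedback genes are all blue, with a median of -0.61, whereas the medians of the 9 lists lie between -0.23 (other IκB proteins) and 0.26 (the 2 ligands).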

How the data were processed

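The authors deposited 1 CPM value per gene and library, without log transformation, for 11048 symbols. The submitters' processing notes name STAR, edgeR 3.24.3, limma 3.38.3 and hg19, without their order, and the annotation used for counting is not given in the sources used here. The text above gives coordinates on GRCh38 (GENCODE 29 and RefSeq promoters), matched by symbol. The lowest of the highest CPM values per gene was 1.50, so lower genes had been removed. A table of the whole series with the same symbols was not used.

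The 10 genes, the 9 pathway lists and the tests were chosen with earlier results of these data known. The named genes are the 10, the 2 largest increases and decreases called in each list and comparison, and for each 2-fold gene the 3 genes of the nearest pattern, although not all are printed. Values were analysed with limma 3.58.1 (lmFit and eBayes with trend) in R 4.3.3, with TMM factors from edgeR 4.0.16, on log2(CPM + 1), with 3 residual and 42.9 prior degrees of freedom, two-sided, without a replicate block. No further filter was used. The 3 comparisons were each adjusted over all genes by the Benjamini-Hochberg method. The script was tested on simulated data.

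Whole reads were recovered from the CPM steps for 3 alternatives (edgeR, DESeq2 1.42.0 and limma-voom). With the smallest gap between values as 1 read, 100% of values were whole within 0.1 read in every library. In the 2 CCF642-34 libraries no value is as small as 1 read, so recovery rests on that gap there. The other alternatives changed the scaling (size factors as in DESeq2, or none beyond the library size) or took only genes with a mean CPM of at least 5, pseudocounts of 0.1, 2 and 4, a linear model per gene, the 2 compared groups alone or the replicate number as a block, or left out each library.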

Additional observations from a re-analysis of the deposited data

How the results depend on the processing

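The log2 fold changes of the 10 genes were recomputed under 18 alternatives, 6 of them leaving out 1 library. With CCF642 against DMSO, 177 of the 180 values kept direction and call. NFKBIE turned to 0.034 without replicate 1 of DMSO and to 0.041 without replicate 2 of CCF642 (range without 1 library -0.15 to 0.041), and TNFAIP3 to -0.081 with library size alone, all 3 without a call in either fit. With CCF642-34 against DMSO, 168 kept both, 11 lost the call (10 for REL, 1 for NFKBIE) and BIRC3 gained one. In the direct comparison 175 kept both and 5 lost the call, for NFKBIE under 3 alternatives and for RELA and RELB with the gene-wise model.

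The gene-wise linear model, which shares no variance between genes and has 3 degrees of freedom, called fewer genes. With CCF642-34 against DMSO it called 2168 higher and 1938 lower (3282 and 3080 in the report's fit). There, 1 of the 10 genes was lower in place of 2. In the direct comparison it called 241 higher and 497 lower (1758 and 1930). Of the list genes, 3 were higher and 10 lower there, in place of 12 and 33. Among the 10 genes, the model lost the calls of REL and NFKBIE with CCF642-34 against DMSO. In the direct comparison it lost those of RELA, RELB and NFKBIE. With library size alone, 22 list genes were higher in the direct comparison. That scaling moved the median of all genes to -0.13, -0.078 and 0.051 in the 3 comparisons, and the share of calls that were higher from 50.4% to 34.8% (CCF642 against DMSO), from 51.6% to 38.6% (CCF642-34 against DMSO) and from 47.7% to 61.8% (direct). Without 1 library, genes called higher in the direct comparison numbered 1037 to 1656, with 1037 without replicate 1 and 1161 without replicate 2 of CCF642-34. The causes were not tested. With 1 library left in a group, it was assumed to vary like the others.

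The count-based alternatives used recovered reads, which in the CCF642-34 libraries rest on gaps between values. On them edgeR called 3498 genes higher and 3434 lower with CCF642, 3324 and 3116 with CCF642-34, and 1764 and 1960 in the direct comparison. With the replicate number as a block, 3529 genes were higher and 3483 lower with CCF642 (3514 and 3459 without it), and no call of the 10 genes changed. Deviations of same-numbered libraries correlated weakly, at -0.047, -0.077 and 0.11 over 9390 genes, the last between the compounds. With 2 libraries in a group, these values cannot settle whether libraries were paired. Depth limits REL most, and replicates were too few for a check of single libraries that stand apart.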
